A study of Drosophila melanogaster with 2 samples.

Results

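The genes described here were 9 Drosophila genes of the trithorax group and the Brahma complex: brm, mor, osa and Snr1, which encode Brahma complex subunits, Trl, trx, ash1 and ash2, and kis. They were chosen by name, with earlier results of these data known, as 9 of 13968 annotated protein-coding genes. Every peak whose summit lay in 1 of them or within 1 kb of it was taken, whatever its height. The list of reproducible peaks, called the optimal list below, held 14 such peaks of 3970 in all. The list called on both replicates together held 67 of 26275 regions at these genes, and the replicate lists held 68 of 30000 in replicate 2 and 81 of 30000 in replicate 3. Those 3 longer lists also hold weak background regions.

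The chromatin came from whole embryos of mixed sex, aged 0 to 24 h, of a single fly line in which an eGFP exon inserted in an intron of pum makes a tagged Pumilio (Pum) protein. DNA bound by the fusion was collected with an antibody against GFP and sequenced (ChIP-seq). There were 2 biological replicates, numbered 2 and 3, in 1 group, and no control or untagged library was analysed here, so no groups were compared and no test was run. All cell types of the embryo are mixed, and binding in a few cells cannot be told apart from weaker binding in many. The height of a peak is its signal, the authors' own value, which ranks peaks within 1 list only. Signal ran from 80.4 to 2369 in the optimal list, with a median of 133.8. Read depth is unknown, since the files hold peaks and no read counts.

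Trithorax group proteins keep developmental genes, the Hox genes among them, in an active state against Polycomb silencing. The Brahma complex is the fly SWI/SNF remodeller, which uses ATP to move or evict nucleosomes. Its forms include BAP, which holds Osa, and PBAP, which does not. Other members of the group place methyl groups on histones or read them. Pum itself is best known as a repressor of messenger RNAs through sites in their untranslated regions, and here the DNA recovered with it was read.

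An optimal peak lay at 7 of the 9 genes (77.8%), against 27.4% of all protein-coding genes. The exceptions were Snr1 and ash2. A peak within 500 bp of an own transcript start was found at 3 of the 9 (33.3%), brm, mor and Trl, against 18.7% of all protein-coding genes. The other 4 genes with a peak, trx, osa, ash1 and kis, had none at an own start. This pattern was shown by 8.73% of all protein-coding genes, short and long. Of the 14 peaks, 10 lay inside a gene of the set and 9 of these were intronic in every transcript that covers the summit. The shares of all optimal peaks inside a gene and in introns were not counted, so these counts cannot be called high or low. Within 500 bp of a start of any gene, neighbours included, lay 7 of the 14, beside 52.5% of all optimal peaks, a share near this background. The median signal of the 14 was 235, and their range was 104 to 2334. Trl, osa and ash1, 3 of the 9, had a peak among the 50 strongest of the optimal list inside the gene or within 1 kb. The share over all protein-coding genes was 0.537%, and these 50 are 1.26% of the list. The ash1 peak lay 151 bp outside the gene and 98 bp from the start of its neighbour CG14100.

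Most of these genes are longer than the median protein-coding gene, and longer genes more often had an optimal peak. The median length was 12788 bp, against 2164.5 bp over all protein-coding genes. Among genes over 15 kb, an optimal peak lay at 51.1% of all such genes and at 3 of 3 here, trx, osa and kis. For genes of 5 to 15 kb the share was 39.5% over all genes and 3 of 3 here, brm, Trl and ash1. For genes under 5 kb it was 21.8% over all genes and 1 of 3 here, mor. At the starts of genes over 15 kb the share was 23.8% over all genes and 0 of 3 here. A peak with none at an own start was therefore more frequent among genes over 15 kb than the 8.73% over all protein-coding genes. The length classes were chosen after these values had been seen.

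**Figure D1:**
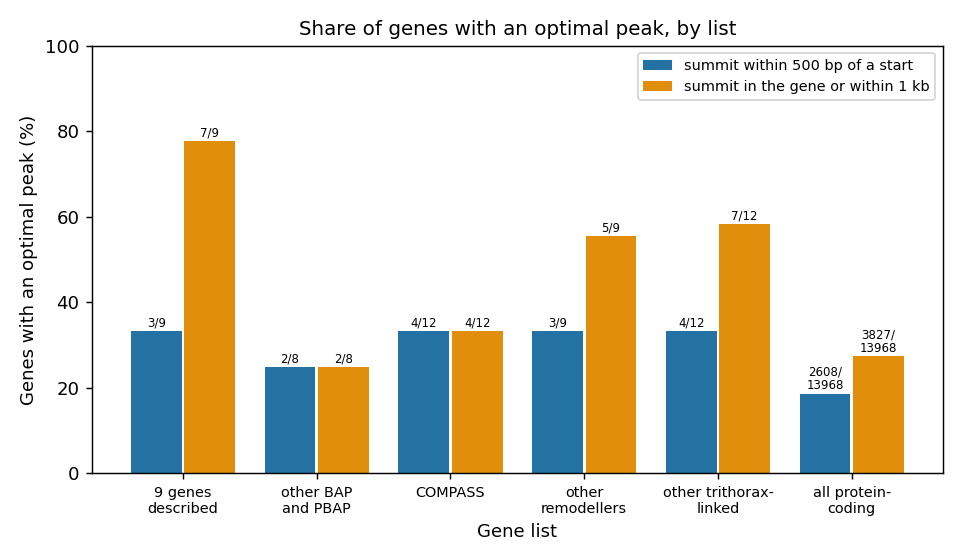
The bars give the percentage of genes with an optimal peak within 500 bp of a start and within the gene or 1 kb of it, for the 9 genes, the groups of related genes and all 13968 protein-coding genes. Numbers above the bars are genes with a peak of genes in the group, and the 9 genes stand at 33.3% and 77.8%. The groups were not matched for gene length.

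The strongest peak of each of the 7 genes is shown as 201 bases centred on its summit, on the plus strand of dm6, because the summit is where the recovered DNA was most concentrated. Capitals mark GAGAG, the core of the sites bound by GAGA factor, and TGTANATA, the core of the RNA motif bound by Pum, in either orientation, and also CACAGTG in either orientation, letters noticed after the sequences had been read.
brm chr3L:15982873-15983073: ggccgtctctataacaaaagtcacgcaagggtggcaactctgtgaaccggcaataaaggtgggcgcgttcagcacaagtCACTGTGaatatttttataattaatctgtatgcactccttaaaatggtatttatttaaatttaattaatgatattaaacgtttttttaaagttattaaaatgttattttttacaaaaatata
mor chr3R:15972962-15973162: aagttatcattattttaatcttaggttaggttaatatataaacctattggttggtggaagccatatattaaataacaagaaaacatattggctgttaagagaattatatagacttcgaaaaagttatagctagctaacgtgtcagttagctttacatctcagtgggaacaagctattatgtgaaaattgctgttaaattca
osa chr3R:17704327-17704527: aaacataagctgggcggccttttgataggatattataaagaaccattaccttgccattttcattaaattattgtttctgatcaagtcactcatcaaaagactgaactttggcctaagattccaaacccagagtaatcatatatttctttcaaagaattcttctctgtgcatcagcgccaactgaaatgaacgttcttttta
Trl chr3L:14759395-14759595: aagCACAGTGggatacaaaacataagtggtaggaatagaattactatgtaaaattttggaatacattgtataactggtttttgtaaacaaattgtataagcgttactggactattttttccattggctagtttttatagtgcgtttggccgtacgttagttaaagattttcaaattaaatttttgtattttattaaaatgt
trx chr3R:14283787-14283987: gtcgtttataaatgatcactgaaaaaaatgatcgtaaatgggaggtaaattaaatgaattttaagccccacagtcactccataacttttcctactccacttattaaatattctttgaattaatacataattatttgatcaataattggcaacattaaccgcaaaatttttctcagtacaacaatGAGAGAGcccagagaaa
ash1 chr3L:19590522-19590722: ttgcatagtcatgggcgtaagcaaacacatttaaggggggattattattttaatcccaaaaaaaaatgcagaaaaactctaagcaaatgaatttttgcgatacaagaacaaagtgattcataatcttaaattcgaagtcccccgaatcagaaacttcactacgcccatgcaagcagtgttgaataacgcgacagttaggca
kis chr2L:223480-223680: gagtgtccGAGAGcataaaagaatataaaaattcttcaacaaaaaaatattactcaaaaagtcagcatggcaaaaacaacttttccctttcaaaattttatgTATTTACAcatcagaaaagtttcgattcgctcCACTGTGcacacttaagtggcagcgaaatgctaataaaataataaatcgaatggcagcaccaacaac

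The windows were rich in A and T. Their GC content was 30.3% at brm, 29.4% at mor, 34.8% at osa, 27.9% at Trl, 30.3% at trx, 37.3% at ash1 and 33.3% at kis. Over all 14 peaks the median was 34.1% and the range 26.9% to 47.8%, beside a median of 36.3% over all optimal peaks and 42.3% over windows around 19275 protein-coding starts.

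The brm gene (FBgn0000212, chromosome 3L, 15970082 to 15982869, minus strand, 12788 bp) encodes the ATPase of the Brahma complex. It had 1 optimal peak, at 15982973, 104 bp upstream of a brm start and within the 267 bp called. The signal was 314 on both replicates together, rank 468 of the optimal list. It was 191 in replicate 2, rank 435, and 118 in replicate 3, rank 579, so both replicates put it well up their lists. The divergent start of Arl1, a small GTPase of the Golgi, lay 162 bp from the summit on the other strand, and the peak cannot be assigned to 1 of the pair. A weaker region in an intron, at 15977822, had a signal of 67.3 and rank 4952 in the list called on both replicates together, outside the optimal list.

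The mor gene (FBgn0002783, chromosome 3R, 15968134 to 15972913, minus strand, 4780 bp) encodes Moira, a core scaffold subunit. Its peak at 15973062 lay 149 bp upstream of the start and 236 bp from the divergent start of Hel89B, a helicase of the SNF2 family. The signal was 207 on both replicates together, rank 994, and 138 and 63.0 in replicates 2 and 3, ranks 803 and 1816. A second peak, 650 bp away at 15973712, lay inside Hel89B, 414 bp from its start, and was the lowest of the 14, with a signal of 104 and rank 2855. It was also the only one of the 14 outside the 3970 strongest regions of a replicate, with rank 2887 in replicate 2 and rank 4039 in replicate 3. Its window held the most GAGAG sites of the 14, namely 6 counted with overlap.

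The osa gene (FBgn0261885, chromosome 3R, 17687818 to 17718350, minus strand, 30533 bp) encodes the ARID-domain subunit that defines BAP. Its strongest peak, at 17704427, lay in intron 4, 13923 bp downstream of the only annotated start, within the span of lncRNA:CR46035. The signal was 924 on both replicates together, rank 41. It was 532 in replicate 2, rank 44, and 382 in replicate 3, rank 38, so its place was nearly the same in all 3 lists. A second peak in the same intron, 3776 bp away at 17700651, lay 90 bp from the start of lncRNA:CR46036 and had a signal of 164, rank 1459, with ranks 1460 and 1385 in replicates 2 and 3. At the osa start itself, the region at 17718318 had a signal of 41.4 and rank 9349, outside the optimal list. The strongest region within 500 bp of the start, which need not have the same summit in each list, ranked 5933 in replicate 2 and 10979 in replicate 3. The gene held 21 regions of the list called on both replicates together, 6.45 per 10 kb of gene and flanks.

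The Snr1 gene (FBgn0011715, chromosome 3R, 5470926 to 5472754, plus strand, 1829 bp) encodes the core subunit related to yeast Snf5. It had no optimal peak. A region at its start, at 5470948, had a signal of 30.3 and rank 16067 on both replicates together, and the strongest region at the start ranked 9039 in replicate 2 and 17360 in replicate 3. The start of mRpL44 lay within 500 bp of the same summit. Of the 4 Brahma complex genes, brm and mor therefore had an optimal peak at the start, osa had its peaks far inside the gene, and Snr1 had none.

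Trl (FBgn0013263, chromosome 3L, 14747929 to 14761049, minus strand, 13121 bp) encodes GAGA factor, which binds GA repeats in DNA and keeps promoters open. It had 4 optimal peaks with summits spread over 4253 bp, and 0.945% of all protein-coding genes had 4 or more. The strongest, at 14759495, lay in intron 2 of the 1 transcript of 10 that covers it, 1533 bp upstream of the nearest start. Its signal was 808, rank 49, and 439 and 366 in replicates 2 and 3, ranks 63 and 41.

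The next peak of Trl, at 14757208, lay 128 bp downstream of a start, in the untranslated first part of all 10 transcripts. Its signal was 329, rank 426, with 235 in replicate 2, rank 280, and 98.2 in replicate 3, rank 826. This was the strongest peak at a start among the 9 genes. In the optimal list it fell between a peak with signal 329.13, 114 bp from the nearest protein-coding start, that of ND-24 (a subunit of respiratory complex I), and a peak with signal 327.227, 6282 bp from the nearest such start, that of CG43121. The remaining peaks of Trl had nearly the same signal, 176.4 at 14760378 and 176.2 at 14756125, ranks 1317 and 1320, but the replicates ordered them differently. The first had rank 2227 in replicate 2 and 764 in replicate 3, and the second had rank 1035 in replicate 2 and 2900 in replicate 3. The summits at 14756125 and 14757208 also lie within CG42507.

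The trx gene (FBgn0003862, chromosome 3R, 14263358 to 14286903, minus strand, 23546 bp) encodes a histone H3 methyltransferase of the COMPASS family, after which the group is named. Its main peak, at 14283887 in intron 1, lay 3016 bp downstream of its only start. The signal was 391, rank 289, with 207 and 183 in replicates 2 and 3, ranks 371 and 220. A weaker peak at 14278081, 5806 bp away and 8822 bp from the start, had a signal of 114 and rank 2496, with ranks 2926 and 2165. The region at the start, at 14287025, had a signal of 68.2 and rank 4885 on both replicates together. The replicates disagreed there, since the strongest region at the start ranked 28367 in replicate 2 and 3708 in replicate 3.

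The ash1 gene (FBgn0005386, chromosome 3L, 19590773 to 19598755, minus strand, 7983 bp) encodes another histone H3 methyltransferase. The peak assigned to it was the third strongest of the whole optimal list, at 19590622, with a signal of 2334. It ranked 2 in replicate 2, with 1522, and 4 in replicate 3, with 818. Its summit lay 151 bp beyond the end of ash1 and 8133 bp from the ash1 start, and only 98 bp from the start of CG14100, the next gene on the same strand. It therefore counts for ash1 only through the 1 kb outside the gene. At the ash1 start, near that of Taf6, a subunit of the general factor TFIID, no region was listed on both replicates together, and the replicates held weak ones of ranks 29283 and 25233.

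The ash2 gene (FBgn0000139, chromosome 3R, 24650125 to 24653376, plus strand, 3252 bp) encodes a subunit shared by the COMPASS complexes. It had no optimal peak. The region at its start, at 24650112, had a signal of 54.7 and rank 6394, and lay within 500 bp of the start of puf, a ubiquitin protease gene. The strongest region at the start ranked 4397 in replicate 2 and 27259 in replicate 3.

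The kis gene (FBgn0266557, chromosome 2L, 210735 to 250823, minus strand, 40089 bp) encodes Kismet, a chromodomain helicase of the CHD family, and is the longest of the 9. Its stronger peak, at 223580, was intronic in the 5 of 6 transcripts that cover it, 1618 bp upstream of the internal start and 61 bp from the start of lncRNA:CR44222. The signal was 263, rank 640, with 143 and 121 in replicates 2 and 3, ranks 761 and 549. The other, 1294 bp away at 224874, had a signal of 131 and rank 2042, with ranks 1505 and 3122. At the upstream start, the region at 250945 had a signal of 75.6 and rank 4291, just outside the optimal list, and the strongest there ranked 4131 and 4988 in the replicates.

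**Figure D2:**
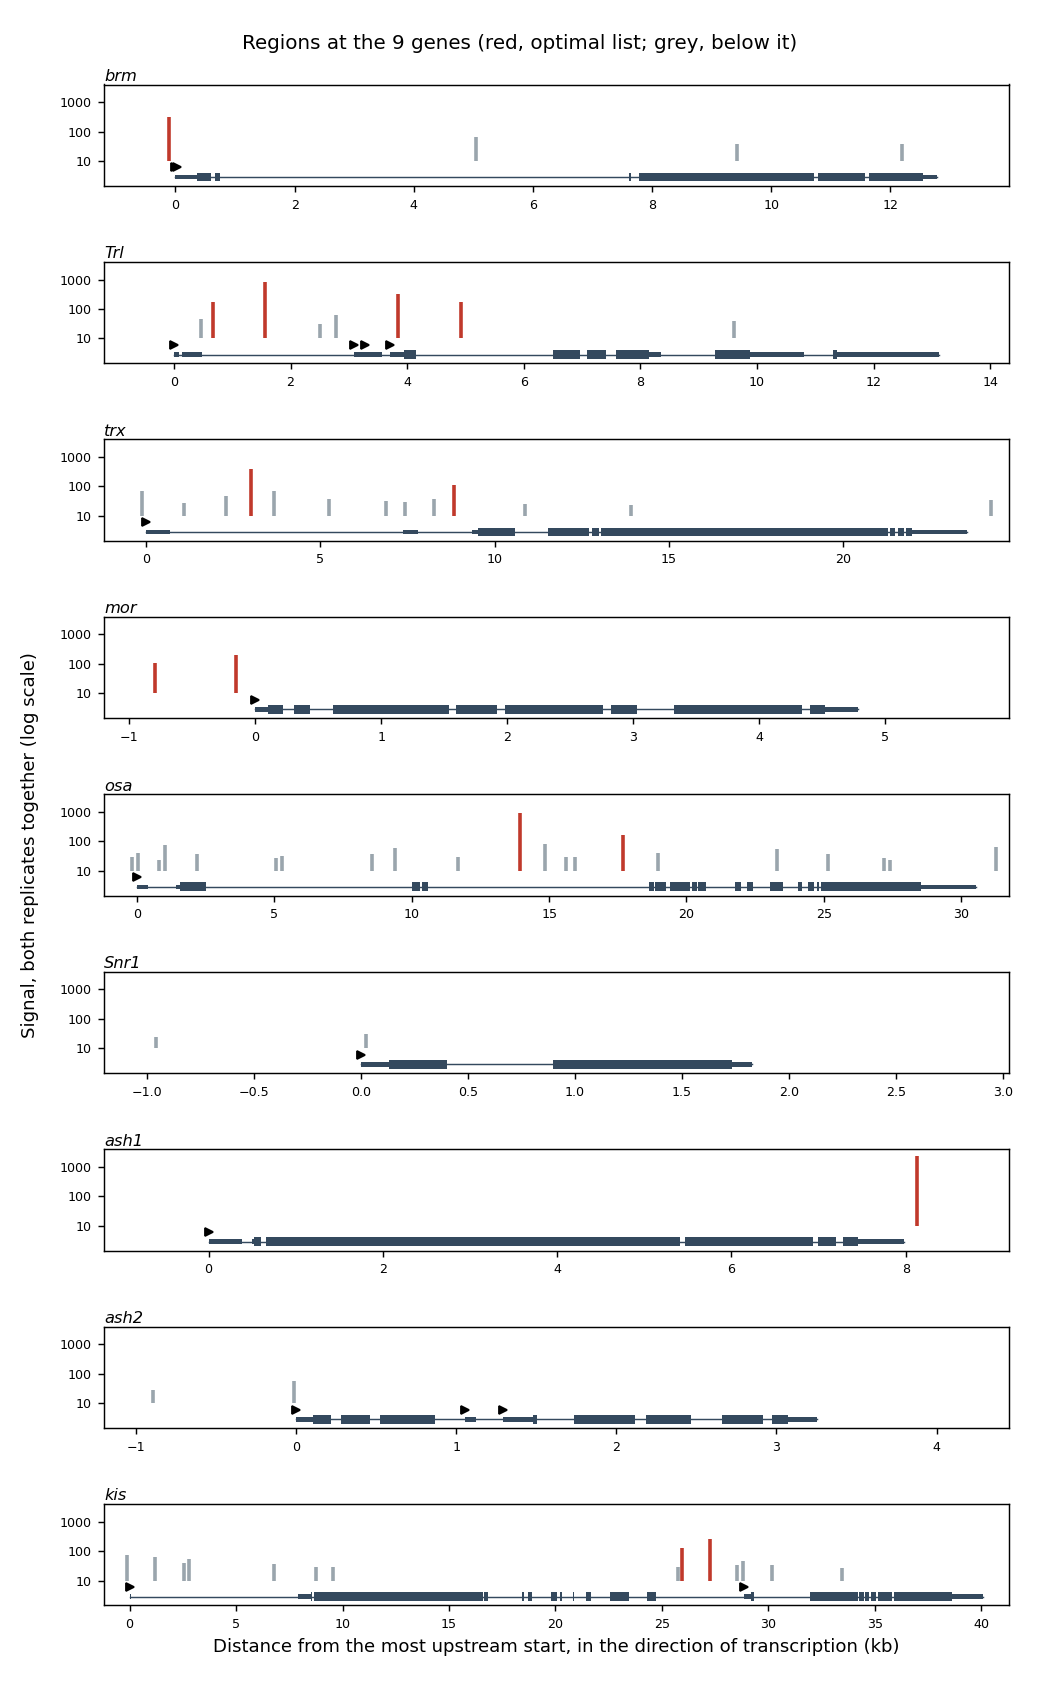
Vertical lines are the regions called on both replicates together, placed by the distance of the summit from the most upstream start in kb and by signal on a log scale, with optimal peaks in red and weaker regions in grey. Below them, thick boxes are coding exons, thinner boxes other exons and arrowheads transcript starts, and the red lines of trx, osa and kis stand inside introns while that of ash1 stands past the end of the gene.

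**Figure D3:**
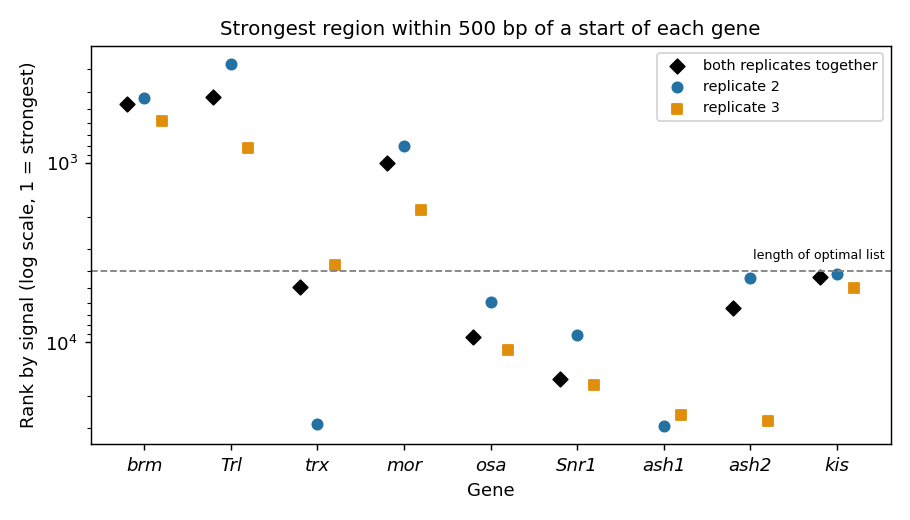
For each gene the symbols give the rank of the strongest region within 500 bp of an own start (log scale, 1 at the top) in the list called on both replicates together and in each replicate list, and the dashed line marks rank 3970. The starts of brm, Trl and mor stand above the line in all 3 lists, trx only in replicate 3, and ash1 has no symbol for both replicates together because no such region was listed.

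The lowest optimal peaks at these genes were kis at 131, trx at 114 and mor at 104, ranks 2042, 2496 and 2855. All lay below the median signal of the optimal list, 133.8, and above the lowest signal in it, 80.4. The strongest regions outside it were an osa region at 17703493 with 80.3, rank 3986, near the start of lncRNA:CR46035, and then the kis start with 75.6, an osa region at 17717347 with 72.4, the trx start with 68.2, a trx region at 14283240 with 67.7 and the brm intron with 67.3.

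All 14 optimal peaks had a summit within 100 bp in both replicate lists, as did 94.3% of all 3970 optimal peaks. Among the 3970 strongest regions of each replicate, 13 of the 14 were found in both, beside 68.8% of all optimal peaks. The 14 had a higher median signal than the whole optimal list, 235 against 133.8, and these shares were not matched for signal. The optimal list was made from these same libraries, so a match is no independent evidence for a peak. In replicate 3 alone, 4 genes had a start among its 3970 strongest regions, trx being the addition, and in replicate 2 alone there were 3.

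**Figure D4:**
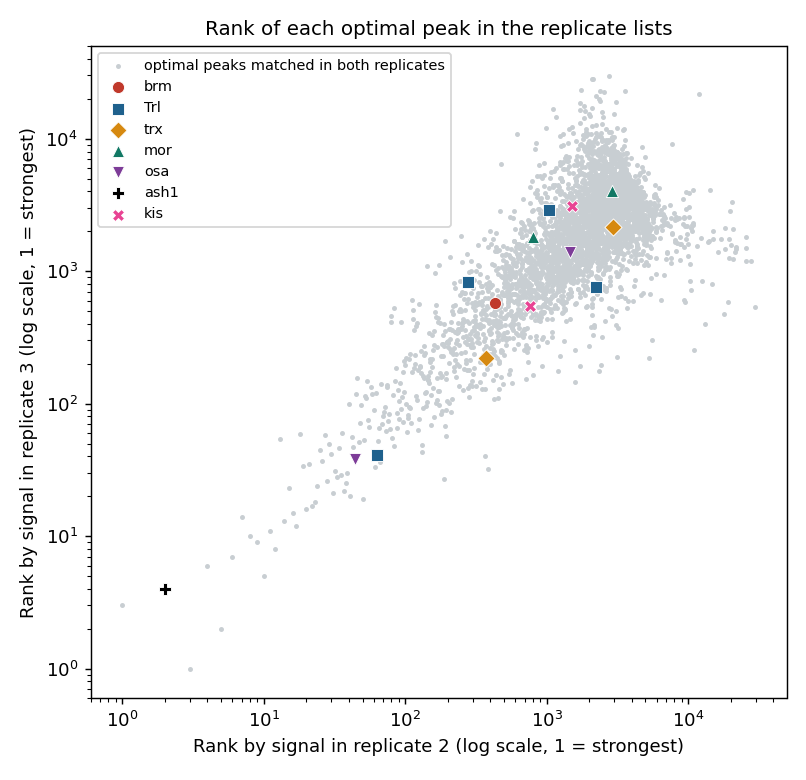
Each point is an optimal peak, placed by its rank in replicate 2 (x axis) and replicate 3 (y axis), both on log scales with 1 as the strongest. Coloured symbols are the 14 peaks at the 7 genes, of which ash1 stands at ranks 2 and 4 and osa at 44 and 38.

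Among the 3827 protein-coding genes with an optimal peak, ordered by the strongest one, ash1 came 4 through the peak it shares with CG14100, and the others followed with osa at 62, Trl 71, trx 411, brm 642, kis 848 and mor 1276. The median of the strongest signal was 391 over the 7 genes and 157 over the 3827. The list called on both replicates together held a median of 3.81 regions per 10 kb at the 9 genes, against 2.58 over all protein-coding genes. That median is the value of ash2, which rested on 2 weak regions, 1 of them 895 bp upstream and inside puf. The genes osa, Snr1, Trl and trx stood above 5 regions per 10 kb, with 6.45, 5.22, 5.29 and 5.09, and ash1 had 1.00. The gene with the strongest peak, ash1, thus had the fewest regions for its length. The density of Snr1 rested on 2 weak regions at a short gene, 1 of them 958 bp upstream and inside mRpL44, and replicate 3 held 1 region there.

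**Figure D5:**
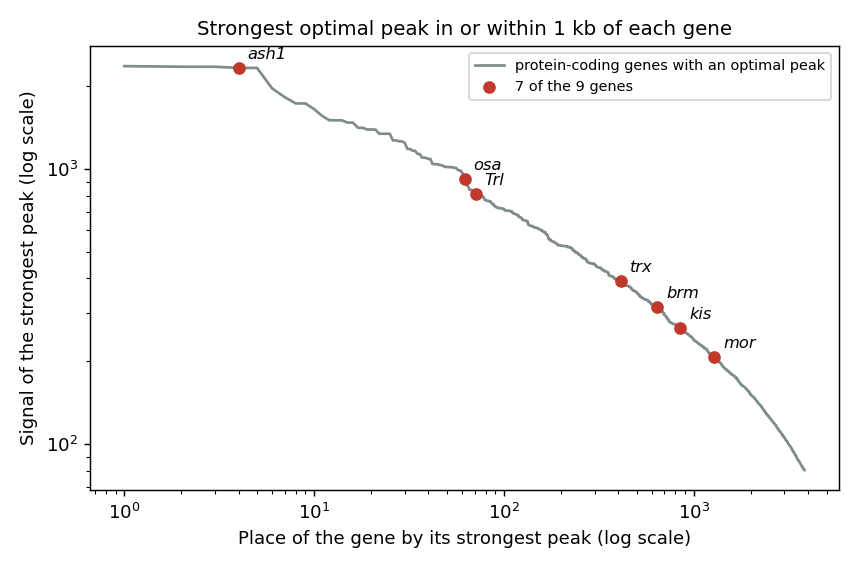
The line gives the signal of the strongest optimal peak of each of 3827 protein-coding genes in order of signal, on log scales, and the red points are the 7 genes with a peak. They run from ash1, in place 4 with 2334, to mor, in place 1276 with 207.

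GAGAG occurred within 100 bp of the summit, on either strand, at 6 of the 14 peaks (42.9%). The shares over all optimal peaks and over protein-coding starts were 22.8% and 25.0%. The 6 peaks lay at Trl, trx, mor, osa and kis. The strongest Trl peak held no GAGAG, and its peak at 14760378 held 2. Within 50 bp of the summit the letters were found at 1 of the 14. The share over all optimal peaks was not counted in that narrower window, so no placement is read from this count. At the main trx peak 2 overlapping sites were centred 86 and 88 bp from the summit.

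TGTANATA was found at 1 of the 14 peaks (7.14%), beside 9.27% of all optimal peaks and 5.89% of starts. This was the stronger kis peak, where it reads TATTTACA on the plus strand, at chr2L:223582-223589. Since kis is transcribed from the minus strand, the motif stands in the direction of the kis transcript, where the summit is intronic. The span of lncRNA:CR44222, on the plus strand, also covers the summit, and the motif stands against the direction of that gene. The centre of the motif lay 5 bp from the summit. The other letters searched were found at 0 of the 14 peaks. Over all optimal peaks their shares were 4.56% for TATCGATA (the element bound by DREF), 2.54% for GGTCACAC (bound by M1BP), 0.806% for CAGGTAG (bound by Zelda) and 8.82% for CAGCTG (an E-box). No match says only that these letters were not in the window.

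Of 41 other genes of these complexes and their relatives, 18 (43.9%) had an optimal peak in the gene or within 1 kb and 13 (31.7%) had one at a start, beside 27.4% and 18.7% of all protein-coding genes. These shares were not matched for gene length, and longer genes more often had an optimal peak. The median signal at the starts was 142 over these 13 genes and 149 over all genes with such a peak. Among 8 other genes listed here as BAP and PBAP subunits, 2 had a peak at a start. Bap60, a core subunit, had a signal of 241, rank 760, shared with the start of CG12096. Brd7-9, a bromodomain subunit, had 136, rank 1934.

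Among 12 COMPASS genes, 4 had a peak at a start. These were the methyltransferase gene trr with 109, rank 2661, shared with mRpL16, the core subunits Rbbp5 with 109, rank 2675, shared with eRF1, and Dpy-30L1 with 106, rank 2778, shared with EMC3, and Mnn1, the fly menin, with 94.6, rank 3219. All 4 lay in the weaker part of the list. Among 9 other remodellers, 3 had one: Ino80 with 440, rank 211, shared with Aptx, Chd1 with 196, rank 1097, shared with Bem46, and the NURF subunit gene E(bx) with 95.1, rank 3200, shared with mthl14. The Ino80 peak was thus higher than any start peak of the 9 genes.

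Among 12 further genes linked to the group, 4 had a peak at a start. The BET protein gene fs(1)h had 211, rank 957, shared with mys, psq, which like Trl encodes a protein that binds GA repeats, had 186, rank 1202, the Mediator subunit gene skd had 173, rank 1359, shared with Pdss2, and lolal, a BTB-domain partner of GAGA factor, had 142, rank 1817. A further 5 of the 41 had optimal peaks but none at a start, as did trx, osa, ash1 and kis. They were Mi-2, dom, tna, MRG15 and Dsp1, named here after their values were seen, and their strongest signals were 294, 90.9, 159, 111 and 395.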

How the data were processed

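ChIP-seq of Pum-eGFP from 2 biological replicates of whole embryos was analysed from the peak lists on dm6. Column 7 of each list holds the signal of a peak, deposited by the authors. Another column holds the −log10 of the q-value, also deposited by the authors. It was 3.89 for each of the 14 peaks, from rank 3 to rank 2855, which is the highest value in the optimal list. The list called on both replicates together had the same highest value. The share of all optimal peaks with this value was not counted, so it does not set the 14 apart. The optimal list equals the 3970 strongest regions of the list called on both replicates together. How peaks were called and cut for reproducibility is not given in the sources used here, and read depth is unknown. The lists on dm3 were not used.

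Summits were assigned, with 1-based coordinates, to every gene of Ensembl release 115 (BDGP6.54) that held them or lay within 1 kb, and to transcript starts within 500 bp. Sequence came from the RefSeq genome of the same assembly. Motifs were searched on both strands of 201 bp windows. Assignment was tested on simulated data. The 9 genes, the related genes and the alternatives were chosen with earlier results of these data known, and no test was run. Of 42 related names 41 were matched, lid through its current name Kdm5, and SS18 was not. Named were the 9 genes, genes with a start within 500 bp of a summit at them, the 4 strongest start peaks of each related group, and the neighbours in rank of the strongest start peak. Python 3.11.15, numpy 2.4.6, pandas 2.3.3 and matplotlib 3.10.9 were used.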

Additional observations from a re-analysis of the deposited data

How the results depend on the processing

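Each choice was changed alone in 47 alternatives, and 41 left the count within 1.5 times of the reported one or the value as it was. Counting summits inside the genes only gave 4 genes with a peak in place of 7, since brm, mor and ash1 were reached outside the gene. Counting all regions called on both replicates together gave 8 genes with one at a start in place of 3. The median of the strongest signal was 183 to 207 when 1 replicate was left out, in place of 391, and each replicate list has its own scale. With the stronger 50% of the optimal list, 8 related genes in place of 13 had a peak at a start. A window of 50 bp left GAGAG at 1 peak in place of 6. Allowing 2 kb outside the genes gave 9 genes and 18 peaks, and giving each summit to the gene with the nearest start gave 6 genes, with the same count of 3 at starts. With replicate 3 alone 7 genes had a peak, 4 of them at a start, and 18 peaks were counted, and with replicate 2 alone these were 7, 3 and 14. Shares over all protein-coding genes or all optimal peaks are not given for these alternatives. The changed counts therefore cannot be set against the shares reported above. No paired analysis was possible because there was 1 group. The lack of read counts and of a control list limits what a low rank can say.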

Other observations

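Beyond 1 kb and up to 2 kb outside the genes, 4 more optimal peaks were found, including the nearest ones to Snr1 and ash2. The peak near Snr1, at 5474655 on chromosome 3R, lay 1901 bp past the gene and 55 bp from the start of CG45100, with a signal of 168, rank 1409. The peak near ash2, at 24655081 on chromosome 3R, lay 1705 bp past the gene and 79 bp from the start of CG6695, with a signal of 139, rank 1876. A peak at 15974433 on chromosome 3R, inside the neighbour of mor, Hel89B, had a signal of 219, rank 913, above the 207 of the peak at the mor start. Upstream of Trl, a peak at 14762415 had a signal of 81.1, rank 3913, and the replicates ranked it 20946 and 2075.

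The letters CACAGTG, on either strand, were noticed in the printed sequences and then counted. They stood within 100 bp of the summit at 4 of the 14 peaks (28.6%), namely brm, the strongest of Trl and both of kis. The share was 13.6% over the 500 strongest optimal peaks, 8.19% over all 3970, 4.27% over 22305 weaker regions and 2.52% over protein-coding starts. The letters were chosen after the sequences had been seen, so these shares are a description, with no test.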
